A study of Mus musculus with 4 samples.

Results

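Hedgehog signalling genes were followed in kidneys of mouse embryos that lacked Wnt4. The 9 genes were the ligand genes Shh and Ihh, the receptor and ligand-binding genes Ptch1, Smo and Hhip, and the effector genes Gli1, Gli2, Gli3 and Sufu. Their members on the array were the 22 probe sets that the platform annotation gives to 1 of these genes alone, of 45101 probe sets for 18194 genes in all. The study compared 2 arrays of Wnt4 mutant kidneys with 2 arrays of wild-type kidneys, taken whole at E14.5 (Theiler stage 22). The mutants carried the null allele Wnt4tm1Amc, their strain field reads 129, and each mutant array held RNA pooled from 12 kidneys. The strain field of the wild-type samples reads CD-1 and each of their arrays held RNA pooled from 2 kidneys. The protocol text, shared by all samples, names only CD-1 matings. The effects of genotype, strain as stated and pool size cannot be told apart. The labels do not give the litters behind each pool, so p-values reflect the spread between pools alone, and the embryos' sex is given as unknown. Per the study's design text, the renal vesicle and the nephron structures that form from it are missing in the mutants and present in wild-type kidneys at this stage, and the comparison was made to find genes expressed in them.

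A hedgehog ligand binds Ptch1, a membrane receptor that otherwise holds the signal transducer Smo inactive. Freed Smo acts at the primary cilium to release the zinc finger transcription factors Gli2 and Gli3 from Sufu, and these then act as activators. When the pathway is off, they can be cut to forms that act as repressors. Gli1, Ptch1 and Hhip are themselves switched on by the pathway in many tissues, so their transcripts are often used as a readout of it. In the developing kidney Shh is made by the epithelium of the ureter and the inner collecting ducts and is received by the mesenchyme around them, while Ihh is made by maturing tubule epithelium.

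In the mutant kidneys 5 of the 9 genes were higher and 0 were lower, with 1 tested probe set standing for each gene, the one of highest mean log2 value. They were Shh, Ptch1, Hhip, Gli1 and Gli2, and their levels were 2.10-fold to 3.30-fold those of wild-type kidneys. Hhip, which gave the 3.30-fold, was tested only because of its mutant signals, and its call did not hold under all settings. Among all 13432 genes tested in the same way, 6.7% were higher and 5.82% lower in the mutant. Ihh, Smo and Sufu did not pass at any probe set. For Ptch1, Hhip and Gli3 the tested probe sets disagreed, some passing and others not. Folds and log2 differences are mutant over wild-type on the log2(signal + 16) scale, where adding 16 understates the change of low signals. Tests are limma's with Benjamini-Hochberg adjustment over 27022 probe sets and a threshold of 0.05.

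**Figure D1:**
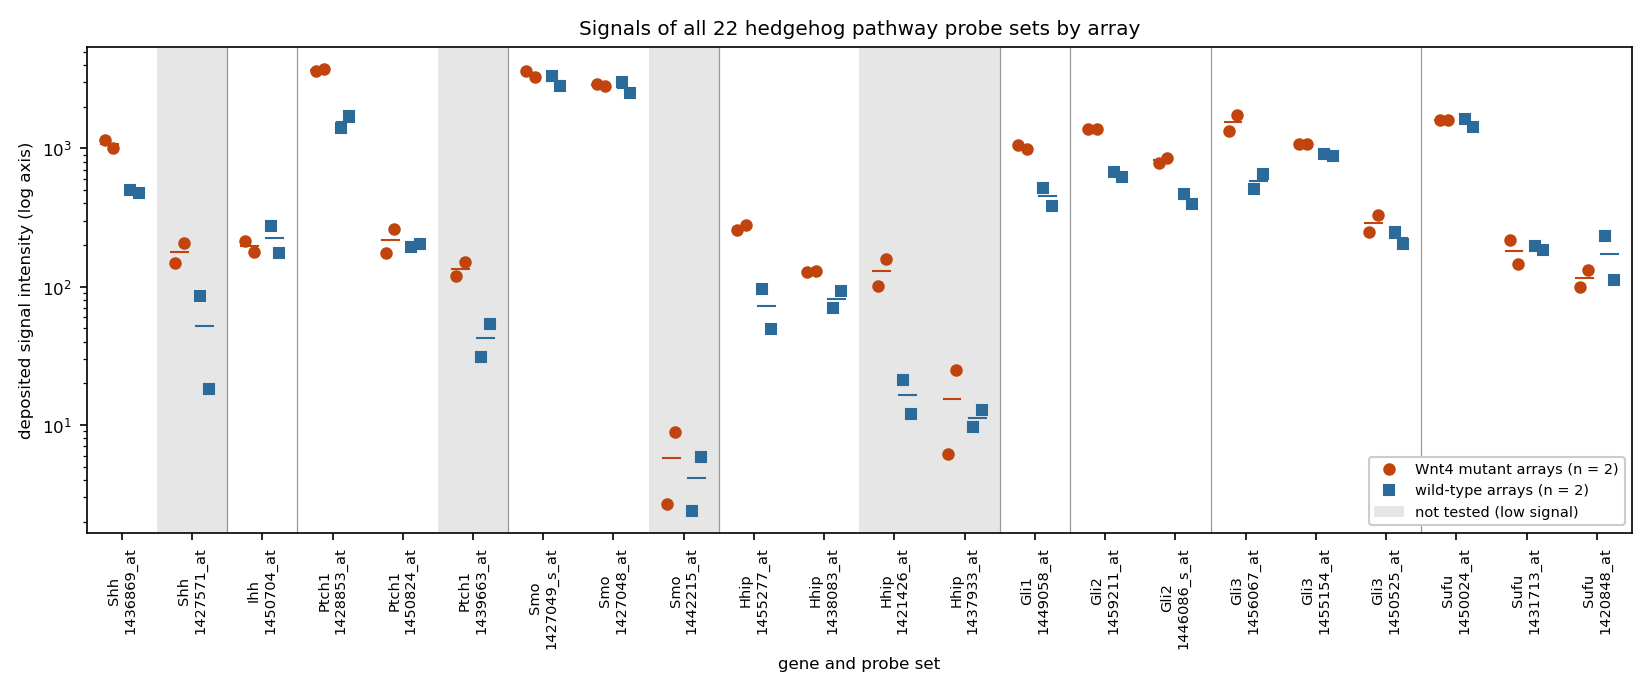
Deposited signal intensity (vertical log axis) of the 22 hedgehog probe sets (horizontal axis) on the 2 Wnt4 mutant arrays (circles) and the 2 wild-type arrays (squares), with short lines at the group means and grey bands over the 5 probe sets not tested. At the tested probe sets of Gli1 and Gli2, and at 1436869_at for Shh and 1428853_at for Ptch1, both mutant arrays lie above both wild-type arrays.

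Before the results, the arrays themselves were compared. Both probe sets for Wnt4 were lower in the mutant, with 406 and 272 in mutant kidneys against 1885 and 1769.9 in wild-type kidneys at the brighter one (5.28-fold lower, limma adjusted p = 0.000196). The mean signal after trimming of the lowest and highest 2% of values was 500.0 on each of the 4 arrays. For the transferrin receptor control, the ratio of 3′ over 5′ signal, which rises as RNA is shortened, was 5.67 and 6.43 on mutant arrays against 4.71 and 5.10 on wild-type arrays, while that of the Gapdh control ran from 0.744 to 0.753 on mutant arrays and from 0.750 to 0.777 on wild-type arrays. For the actin control the ratio overlapped, with 1.56 and 1.54 on mutant arrays against 1.59 and 1.43 on wild-type arrays. The part of these ratios in the results was not tested. Signals are amounts per total RNA of a whole kidney, so more cells of a type and more RNA per cell cannot be told apart.

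The ligand gene Shh rose. At 1436869_at its signal was 1145 and 1013 in mutant kidneys, against 502 and 473 in wild-type kidneys. The groups did not overlap, and the lower mutant pool was above the higher wild-type pool by more than the whole spread within either genotype. The log2 difference was 1.12 ± 0.13 (SE), a 2.17-fold higher level, with an interval at 95% from 0.83 to 1.41 and a limma adjusted p of 0.00136. A second probe set, 1427571_at, read 148 and 208 in mutant and 85.2 and 18.1 in wild-type kidneys. It also did not overlap between genotypes, but its signals were too low for it to be tested, and without the filter on low signals its adjusted p was 0.167. Ihh, the other ligand gene, had 1 probe set, with 216 and 178 in mutant kidneys against 275 and 176 in wild-type kidneys. These ranges overlap, and the log2 difference of -0.16 had an interval from -0.77 to 0.45 (limma adjusted p = 0.771), so changes within that interval could not be told from none.

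Ptch1, both the receptor of the ligands and a target of the pathway, rose at its brightest probe set. Its signal at 1428853_at was 3617 and 3740.3 in mutant kidneys, against 1414 and 1702 in wild-type kidneys. The log2 difference was 1.24 ± 0.11 (SE), 2.36-fold, with an interval from 0.99 to 1.48 and a limma adjusted p of 0.000381. The dimmer 1439663_at read 119 and 150.2 in mutant and 31.2 and 54.1 in wild-type kidneys. That probe set was below the level for testing, with an adjusted p of 0.122 without the filter. At 1450824_at the groups overlapped, with 176 and 262 in mutant and 193 and 203 in wild-type kidneys (log2 difference 0.11, interval from -0.47 to 0.68, limma adjusted p = 0.840). The probe sets for Ptch1 therefore did not agree, and where each lies on the transcript was not analysed here.

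Hhip, a membrane protein that binds hedgehog ligands and so limits their reach, is also switched on by the pathway. At 1455277_at its signal was 257 and 278 in mutant kidneys, against 95.9 and 49.6 in wild-type kidneys. The groups did not overlap and the log2 difference was 1.72 ± 0.32 (SE), 3.30-fold, with a wide interval from 0.98 to 2.46 (limma adjusted p = 0.0130). Its wild-type mean of 72.8 ± 32.7 (SD, n = 2) was below 94.2, the lowest mean level tested, so this probe set was tested only because of its mutant signals. The same holds for 1438083_at, with 127 and 129 in mutant and 69.9 and 92.4 in wild-type kidneys, which did not pass (limma adjusted p = 0.296). The low 1421426_at read 100.4 and 159 in mutant and 21.1 and 12.0 in wild-type kidneys, and passed only when no filter was set (adjusted p = 0.0393). The remaining probe set, 1437933_at, stayed between 6.14 and 24.8 on all arrays. The call of Hhip did not hold in a fit whose variance had no intensity trend (adjusted p = 0.0585), nor with the mean over its 4 probe sets (1.15, adjusted p = 0.0882).

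Smo, the transducer that Ptch1 holds in check, did not pass at any probe set. At 1427049_s_at its signal was 3599 and 3292 in mutant kidneys, against 3354 and 2806 in wild-type kidneys. The log2 difference was 0.17, with an interval from -0.08 to 0.41 (limma adjusted p = 0.391). At 1427048_at the log2 difference was 0.07 with an interval from -0.18 to 0.31 (limma adjusted p = 0.758). In both cases the groups overlapped, and the upper ends of these intervals lie below the lower ends of those at the probe sets that stand for Shh, Ptch1, Hhip, Gli1 and Gli2. The third probe set, 1442215_at, had signals under 10 on each array.

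Gli1, the activator whose transcript depends on the pathway, rose at its 1 probe set. Its signal was 1064 and 983 in mutant kidneys, against 519 and 381 in wild-type kidneys, with no overlap. The log2 difference was 1.17 ± 0.16 (SE), 2.25-fold, with an interval from 0.79 to 1.55 and a limma adjusted p of 0.00369. With no intensity trend in the fit its adjusted p was 0.0559, which misses the threshold.

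Gli2, the main activator of the pathway, rose at both of its probe sets. At 1459211_at the signal was 1385 and 1377 in mutant kidneys, against 676 and 621 in wild-type kidneys (log2 difference 1.07 ± 0.11, SE, 2.10-fold, limma adjusted p = 0.000860). At 1446086_s_at it was 778 and 857 in mutant kidneys, against 464 and 395 in wild-type kidneys (1.88-fold, limma adjusted p = 0.00642). With no intensity trend in the fit the adjusted p of 1446086_s_at was 0.0557, and that of 1459211_at stayed under the threshold. The annotation gives both probe sets the same source sequence, so they are not independent readings of the gene.

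Gli3, which acts mostly as a repressor when the pathway is off, differed by probe set. At 1456067_at the signal was 1343 and 1736 in mutant kidneys, against 510.4 and 649 in wild-type kidneys, a 2.61-fold higher level (log2 difference 1.38 ± 0.16, SE, limma adjusted p = 0.00169). At 1455154_at, with the highest mean log2 value of the 3, it was 1069.6 and 1075 in mutant kidneys, against 905 and 883 in wild-type kidneys. There the groups did not overlap but the log2 difference was only 0.26, with an interval from 0.01 to 0.50 (limma adjusted p = 0.172). At 1450525_at the groups overlapped, with 248 and 332 in mutant and 248 and 202 in wild-type kidneys (limma adjusted p = 0.409). The mean over the 3 probe sets gave a log2 difference of 0.66 (adjusted p = 0.0376). Without either wild-type array 1456067_at had the highest mean and stood for the gene, with values of 1.21 and 1.55 (adjusted p = 4.01e-05 and 1.43e-05).

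Sufu, which binds Gli proteins and restrains them, did not pass at any of its 3 probe sets. At 1450024_at, the brightest, the signal was 1597 and 1611 in mutant kidneys, against 1629.7 and 1422 in wild-type kidneys. The log2 difference was 0.07, with an interval from -0.17 to 0.31 (limma adjusted p = 0.722). The dimmer probe sets overlapped as well and their log2 differences were -0.09 and -0.45, with wide intervals from -0.69 to 0.52 and from -1.28 to 0.39.

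**Figure D2:**
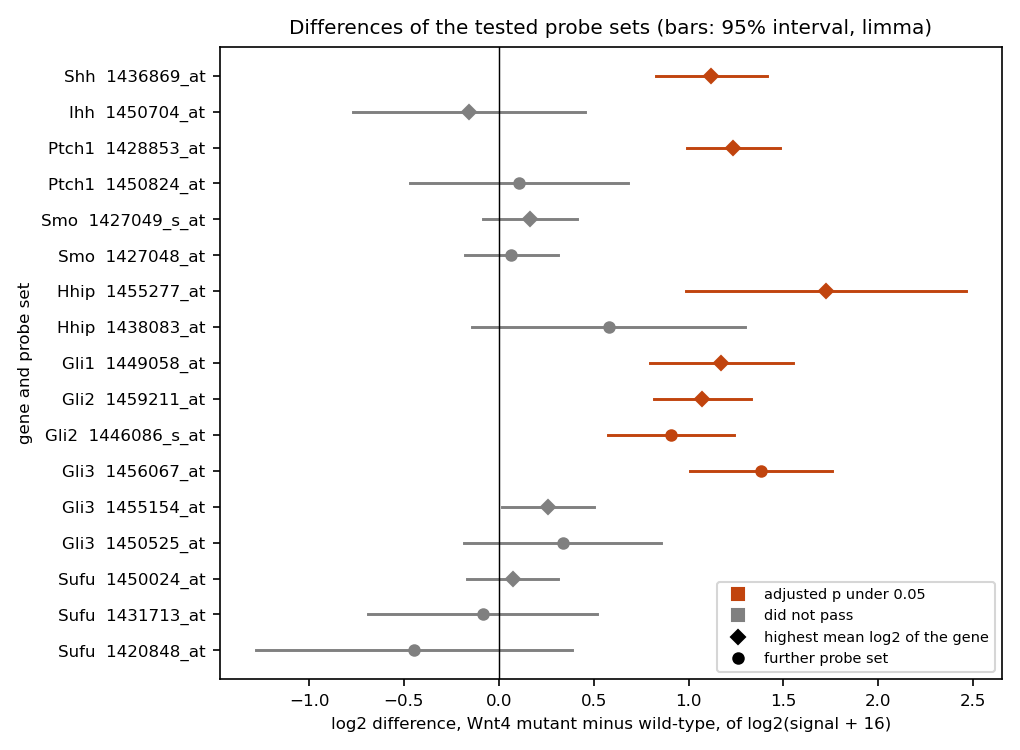
Log2 difference of mutant minus wild-type on the log2(signal + 16) scale (horizontal axis) for the 17 tested hedgehog probe sets (rows), with limma intervals at 95%. Coloured probe sets passed the threshold, and diamonds mark the probe set that stands for its gene. The 7 that passed lie between 0.91 and 1.72, and those for Smo and the brightest for Sufu lie close to 0.

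Over the 17 tested probe sets 7 were higher and 0 lower by limma's adjusted p (8 and 0 at an unadjusted p under 0.05). Among all probe sets tested 10.8% passed, 5.41% higher and 5.39% lower in the mutant. Both mutant arrays were above both wild-type arrays at 9 of the 17, and 26.1% of all tested probe sets show that. These counts describe the probe sets that passed the filter on low signals and not all 22, and 2 of them passed it through their mutant signals as described for Hhip. The median log2 difference of the 9 genes was 1.07, that of all tested genes 0.00.

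Promoter windows of 300 bases, from 250 before to 50 after the transcription start, were listed in RefSeq (GRCm38.p6) for 7 of the 9 genes. They were searched on both strands for the Gli binding motif TGGGTGGTC, whose reverse complement is GACCACCCA. None of the 7 windows held it exactly, and 0.253% of the 32851 windows of all genes did. Shh and Gli1, both called higher, had no window listed and were not searched. Because Ptch1, Hhip and Gli2 rose together, their windows are printed for reference, each 5′ to 3′ on the gene's strand with the stretch closest to the motif in capitals. That stretch had 2 mismatches in Hhip and Gli2 and 3 in Ptch1, and 58.3% of all windows held one with at most 2 and 99.4% one with at most 3. The windows of the 7 genes were 56.3% to 76.3% G or C, above the median of 52.7% over all windows.
Ptch1, chr13:63565686-63565985, minus strand: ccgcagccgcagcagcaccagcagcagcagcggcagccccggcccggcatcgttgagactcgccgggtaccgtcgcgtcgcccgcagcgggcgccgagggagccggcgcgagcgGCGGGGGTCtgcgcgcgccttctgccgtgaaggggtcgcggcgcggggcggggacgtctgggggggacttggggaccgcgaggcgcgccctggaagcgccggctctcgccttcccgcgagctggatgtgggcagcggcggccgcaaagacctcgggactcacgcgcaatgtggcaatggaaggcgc
Hhip, chr8:80057959-80058258, minus strand: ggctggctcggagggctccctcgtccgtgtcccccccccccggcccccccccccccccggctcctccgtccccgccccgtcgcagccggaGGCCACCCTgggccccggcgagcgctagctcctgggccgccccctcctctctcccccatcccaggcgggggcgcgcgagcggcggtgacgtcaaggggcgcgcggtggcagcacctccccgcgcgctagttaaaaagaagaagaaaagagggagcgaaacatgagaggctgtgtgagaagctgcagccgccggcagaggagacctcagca
Gli2, chr1:119053570-119053869, minus strand: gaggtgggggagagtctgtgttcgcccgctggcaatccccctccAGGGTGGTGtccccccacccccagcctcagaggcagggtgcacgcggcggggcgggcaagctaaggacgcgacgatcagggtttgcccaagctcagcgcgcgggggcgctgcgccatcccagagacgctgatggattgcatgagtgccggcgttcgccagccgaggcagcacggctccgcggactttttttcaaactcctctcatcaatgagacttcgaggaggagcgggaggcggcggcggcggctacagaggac

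The genes whose 4 signals ran most like those of the called members were found by the root mean square distance between log2 values centred on each gene's mean over the 4 arrays. For Ptch1 they were Actn3, Nfix and Marveld1, at distances of 0.021, 0.031 and 0.033. For Gli2 they were Klhl4, Ttc28 and Ikzf2 (0.011, 0.018 and 0.021), and for Shh Arhgap28, Rcbtb1 and Rin2 (0.031, 0.046 and 0.047). For Gli1 they were Fbxl7, the hedgehog co-receptor gene Cdon and Srsf12 (0.036, 0.038 and 0.039). With 4 arrays in 2 groups such a likeness mostly restates a similar fold, and it is given as a description.

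Among further genes that bind hedgehog ligands, 3 co-receptor genes were tested, of which Cdon and Boc were higher and Gas1 did not pass at the probe set that stands for it. That is 2 higher and 0 lower, with a median log2 difference of 0.90. This count and those of the lists below stand beside shares of 6.7% higher and 5.82% lower over all tested genes. Cdon and Boc encode cell surface proteins that help Ptch1 take up the ligand. Cdon read 1729 and 1526 in mutant kidneys, against 823 and 640.0 in wild-type kidneys (2.21-fold, limma adjusted p = 0.00215). Boc read 1582 and 1407 in mutant kidneys, against 786 and 793 in wild-type kidneys (1.87-fold, limma adjusted p = 0.00198), and 1426869_at, a further probe set for it, was also called higher. The low 1427517_at for Boc ran the other way, with 9.87 and 19.9 in mutant and 52.1 and 57.1 in wild-type kidneys, below the level for testing. Gas1, another co-receptor, overlapped there (1.17-fold, limma adjusted p = 0.363), but 1448494_at, named after its value was seen, read 4689 and 4401 in mutant and 2819 and 2054 in wild-type kidneys (limma adjusted p = 0.00555). Cdon missed the threshold in the fit with no intensity trend (adjusted p = 0.0516), and without wild-type replicate 1 Gas1 passed it (0.0165).

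Genes for making and releasing the ligand gave 0 higher and 1 lower of 6 tested, with a median of 0.23. The lower one was Scube3, whose family of secreted proteins helps to release the ligand from cells, with 827 and 859.6 in mutant kidneys against 1642 and 1329 in wild-type kidneys (1.74-fold lower, limma adjusted p = 0.00651). In the fit with no intensity trend its adjusted p was 0.0775. Disp1, the membrane protein that exports the ligand, read 518 and 468 in mutant and 397 and 278 in wild-type kidneys (limma adjusted p = 0.125), and passed without wild-type replicate 1 (0.0161). The remaining hedgehog ligand gene, Dhh, read 137 and 156 in mutant and 159.8 and 155 in wild-type kidneys (limma adjusted p = 0.861), and was named after its value was seen.

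Of 21 tested regulators between Smo and the Gli proteins 1 was higher and 0 lower, with a median of 0.06. Over all tested genes 6.7% were higher, so this count does not set the regulators apart. Gpr161, a ciliary receptor that restrains the pathway, read 794 and 959 in mutant kidneys, against 602 and 499.8 in wild-type kidneys (1.57-fold, limma adjusted p = 0.0307). It missed the threshold without mutant replicate 2 (adjusted p = 0.184), without the filter (0.0613) and with no intensity trend (0.127). The kinase gene Csnk1a1 overlapped between genotypes (log2 difference -0.05, limma adjusted p = 0.766), and Prkar1a, a subunit of protein kinase A, did not pass (-0.21, limma adjusted p = 0.150).

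Of 27 tested genes of transport in the primary cilium 6 were higher and 0 lower, with a median log2 difference of 0.17. Kifap3 and Kif3a, parts of the kinesin that carries cargo into the cilium, were 1.52-fold and 1.43-fold higher (limma adjusted p = 0.00405 and 0.0285). Ift57, Ift172 and Ift81, subunits of the transport particle, and Ttc8, of the complex of Bardet-Biedl proteins, were 1.33-fold to 1.49-fold higher. Ift46 read 2072 and 1741 in mutant and 1962 and 1868 in wild-type kidneys and did not pass. The 6 further probe sets of the called genes did not pass. Without either mutant array Kifap3 alone of these 6 passed, the others lying between 0.158 and 0.259 without mutant replicate 1 and between 0.0805 and 0.157 without mutant replicate 2. Ift172 and Ift81 also missed the threshold without wild-type replicate 2 (adjusted p = 0.0657 and 0.0694). The count was 1 without either mutant array, 4 without wild-type replicate 2, 2 with arrays centred on their medians, 3 without the filter and 0 with no intensity trend.

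Genes reported as targets of the pathway elsewhere went both ways, with 5 higher and 1 lower of 13 tested and a median of 0.03. Foxf1, a forkhead gene of hedgehog-responsive mesenchyme, read 429 and 429.7 in mutant kidneys, against 229.8 and 261 in wild-type kidneys (1.71-fold, limma adjusted p = 0.0282). Its further probe set did not pass. Of the 15 further probe sets of the 6 called genes 8 had the same call and 0 the opposite one. The T-box gene Tbx3 was 1.51-fold higher (limma adjusted p = 0.0156), the cyclin gene Ccnd2 1.45-fold (0.00580), the Wnt antagonist gene Sfrp1 1.35-fold (0.0305) and the Rab GTPase gene Rab34 1.28-fold (0.0311). For Sfrp1 the further 1460187_at and 1428136_at, named after their values were seen, passed at 2.21-fold and 1.94-fold. The further 1416594_at and 1438620_x_at did not pass (1.46-fold and 1.32-fold, limma adjusted p = 0.0745 and 0.0536). The cyclin gene Ccnd1 was lower, with 5377 and 5023 in mutant kidneys against 6924 and 7511 in wild-type kidneys (1.39-fold lower, limma adjusted p = 0.0108). Its further 1417419_at gave 3.01-fold lower, with wild-type pools far apart (575 and 532 in mutant, 1093 and 2635 in wild-type kidneys). The brighter 1448698_at for Ccnd1, named after its value was seen, read 4547 and 4692 in mutant and 8024 and 7916 in wild-type kidneys. There the level was 1.72-fold lower (limma adjusted p = 0.000629). Bmp4, a growth factor gene named after its value was seen, read 1002 and 1049 in mutant and 958 and 1134 in wild-type kidneys (limma adjusted p = 0.933). At the probe sets that stand for them in the main fit, each of the 6 called genes lost its call without mutant replicate 2. The log2 differences there were 0.34 to 0.77 for the 5 higher genes and -0.42 for Ccnd1. Foxf1, Sfrp1 and Rab34 also lost their calls without mutant replicate 1. The count of 6 was 3 with arrays centred on their medians, 3 without the filter and 0 with no intensity trend. It also fell when either mutant array was left out, where another probe set may stand for a gene.

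**Figure D3:**
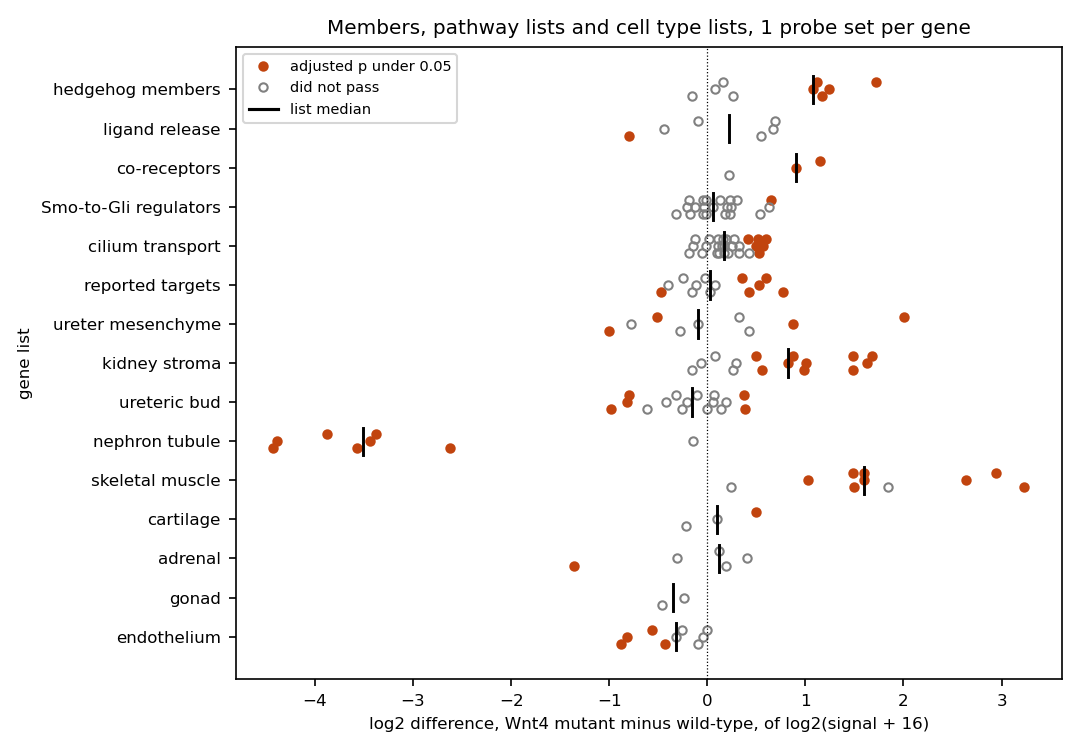
Log2 difference of mutant minus wild-type (horizontal axis) of the 9 hedgehog genes, 5 pathway lists and 9 cell type lists (rows), 1 probe set per gene. Filled circles passed the threshold, open circles did not, and black bars are medians. Medians are 1.07 for the hedgehog genes, 0.90 for co-receptors, 0.82 for stroma and -3.51 for nephron tubule.

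Markers of the cells that make or receive hedgehog ligands were read on the same arrays, where 6.7% of all tested genes were higher and 5.82% lower. Of 15 stromal genes 10 were higher and 0 lower, and their summed signal was 91166 to 91720.0 in mutant and 58975 to 62353 in wild-type kidneys. Ntn1, Foxd1 and Pdgfra were 3.21-fold, 3.08-fold and 2.80-fold higher. Of 9 tested genes of the ureter mesenchyme and its smooth muscle 2 were higher and 2 lower, and the summed signal of the list overlapped, with 7489 to 8989 in mutant and 8067 to 8717 in wild-type kidneys. Tbx18, a marker of ureter mesenchyme, read 1688 and 1434 in mutant kidneys, against 328 and 433 in wild-type kidneys (4.00-fold, limma adjusted p = 0.000265). Tshz3, needed for ureter muscle in mouse, was 1.83-fold higher, and the muscle gene Tagln 2.01-fold lower. The count of 4 was 2 without the filter and 1 with no intensity trend, and it fell when either mutant array was left out. With no intensity trend Tshz3 and Tagln missed the threshold (limma adjusted p = 0.0709 and 0.124), as did Tagln without the filter (0.0604). The call of Tshz3 was lost without mutant replicate 1 (adjusted p = 0.0741) and that of Tagln without mutant replicate 2 (0.0760). The part of these cells in the rise of the hedgehog genes was not tested.

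For the ureteric bud and collecting duct, where Shh is made, 2 of 16 tested genes were higher and 3 lower, with a median of -0.16. Its summed signal was 23594 to 24473 in mutant and 25569 to 26611 in wild-type kidneys. Calb1 and Emx2 were 1.73-fold and 1.98-fold lower, while Krt18 was 1.30-fold higher. Whether these genes read the ureteric bud alone, apart from the nephron structures missing in the mutants, was not tested. Of the 4 further probe sets of the 5 called genes 0 had the same call and 0 the opposite one. Ret, named after its value was seen, was 1.99-fold lower at 1436359_at (limma adjusted p = 0.00992), which is not the probe set that stands for it. At the probe set that stands for it Ret did not pass. The count of 5 was 2 without mutant replicate 1, 3 with arrays centred on their medians and 2 with no intensity trend. The call of Krt18 did not hold when either mutant array was left out (adjusted p = 0.146 and 0.127). Of 8 genes of the differentiated tubule, where Ihh is made later, 7 were lower and 0 higher, with 800.2 to 936 in mutant and 10494 to 11066 in wild-type kidneys. In 4 of the 7 the mutant mean lay below the lowest mean level tested, so that they were tested through their wild-type signals. Fxyd2, Pdzk1 and Slc12a1, which are not among these, were 11.9-fold, 10.4-fold and 14.7-fold lower.

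Muscle, cartilage, adrenal and gonad cells, which could come from tissue next to the kidney, and endothelium, which is part of it, were read in the same way. Of 10 tested skeletal muscle genes 8 were higher, with a summed signal of 8929 to 8984 in mutant and 1672 to 2745 in wild-type kidneys, and Actc1, Myog and Myod1 were 6.21-fold, 9.41-fold and 3.02-fold higher. The wild-type means of Myog (83.2) and of Myl1, another of the 8 (73.1), lay below the lowest mean level tested, so these passed the filter through their mutant signals. The count of 8 muscle genes was 3 with no intensity trend. The part of the muscle genes in the hedgehog result was not tested. In the cartilage list 3 of 6 genes were tested and Col9a1 was 1.41-fold higher (limma adjusted p = 0.0435), but its further probe set 1421381_a_at overlapped (adjusted p = 0.842). Col2a1 and Acan, core genes of cartilage, did not pass (log2 differences of 0.10 and -0.22, limma adjusted p = 0.722 and 0.715), and the defining genes Matn1 and Col10a1 were below the level for testing. In the adrenal list 5 of 10 measured genes were tested and Mc2r was 2.56-fold lower, tested through its wild-type signals since its mutant mean was 64.5, with Nr5a1 and Cyp21a1 below the level for testing. In the gonad list 2 of 7 measured genes, Wt1 and Fgf9, were tested and neither passed. Both are also expressed in the embryonic kidney, and Wt1 gave most of the list's summed signal, so the list does not read gonad cells here. Of 9 endothelial genes 4 were lower and 0 higher, among them Plvap, Cldn5 and Emcn at 1.76-fold, 1.84-fold and 1.35-fold. The count of 4 was 2 without either mutant array, 2 with arrays centred on their medians and 1 with no intensity trend. When 1 mutant array was left out, the calls of Col9a1 (adjusted p = 0.303 without replicate 1, 0.0545 without replicate 2), Emcn (0.195 and 0.0732) and Mc2r (0.0892 without replicate 2) were lost. For cartilage the summed signal was 2274 to 2311 in mutant and 1849.9 to 1932 in wild-type kidneys, and for the adrenal list 1105 to 1379 in mutant and 1249 to 1381 in wild-type kidneys. It was 2266 to 2666 in mutant and 2912 to 3747 in wild-type kidneys for the gonad list, and 8303 to 8399.8 in mutant and 11025 to 11626 in wild-type kidneys for endothelium.

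The calls were set against other settings of the fit. Shh, Ptch1 and Gli2 were called higher under each of the 15 alternatives, with log2 differences of 1.03 to 1.41, 0.91 to 1.37 and 0.99 to 1.13. Gli1 was called under 14 of 15 and Hhip under 12 of the 14 that gave a value. Ihh, Smo and Sufu passed under none of those run, and the sign of Ihh and Sufu turned when 1 array was left out.

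**Figure D4:**
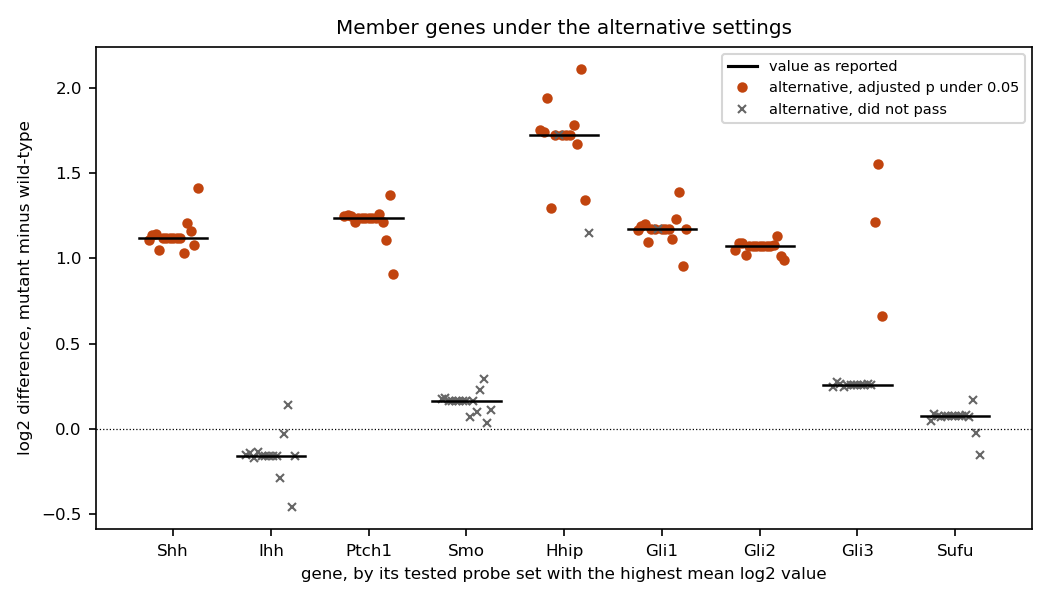
Log2 difference of mutant minus wild-type (vertical axis) of each hedgehog gene (horizontal axis) as reported (black bar) and under the alternative settings, with circles where the adjusted p was under 0.05 and crosses where it was not. Shh, Ptch1 and Gli2 hold only circles, and the 3 circles of Gli3 are the fits that used another probe set or the mean over its probe sets.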

How the data were processed

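RNA from pooled whole kidneys was amplified in 1 round and hybridised to Affymetrix Mouse430_2 arrays, per the labels' protocols and series title. Each probe set has 1 deposited signal intensity per array, linear in scale. The submitters' processing notes name GCOS, with no version, as the only tool. How probes were summarised and to what target they were scaled is not given in the sources used here. Signals were taken as log2(signal + 16) with no further normalization. The 64 control probe sets and the lowest 40% by mean log2 value were left out. A 2-group linear model was fitted to the 27022 others with limma 3.58.1 in R 4.3.3 (eBayes with an intensity trend, two-sided), with Benjamini-Hochberg adjustment. The smallest two-sided p of an exact permutation test at this size is 0.333. The number of arrays limits the precision.

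Genes were named through the platform annotation, updated by gene identifier through RefSeq (GRCm38.p6). Of 45101 probe sets 34958 had 1 gene. Of the 78 pathway genes listed 70 were tested, and the others were not analysed here or too low. Members, lists and tests were chosen with earlier results of these data known. Named genes were all members, from each pathway list the 6 called genes with the smallest p and the 2 highest by mean, and from each cell type list the 3 called genes with the smallest p. Protein sequences were not used here. The fit was tested on simulated data.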

Additional observations from a re-analysis of the deposited data

How the results depend on the processing

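The alternatives changed the normalization (quantile, or each array centred on its median), the pseudocount (1 or 64), the filter (none, or the lowest 60% left out), eBayes (no trend, or robust), the probe sets (no _x_at or _s_at, or a mean per gene) and the arrays (each left out, or numbers as a block). The most depends on the intensity trend. Without it 858 probe sets were called (425 higher), 4 hedgehog probe sets, 3 hedgehog genes, 1 gene of the pathway lists and 20 of the cell type lists, and Hhip (1.72) and Gli1 (1.17) missed the threshold. The main counts were 2920 (1463 higher), 7, 5, 16 and 40. The pathway lists gave 10 with centred arrays, 9 with no filter and 4 with the mean over probe sets, which also gave Hhip 1.15 and Gli3 0.66. When 1 array was left out, called probe sets ran from 1572 to 4008 (701 to 2105 higher), pathway list genes from 5 to 22 and Gli3 from 0.25 to 1.55. The lone array of a genotype is then assumed to vary like the pair. Hedgehog genes called ran from 5 to 6 there. Hhip had no value with the lowest 60% left out.

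The labels give both genotypes replicate numbers 1 and 2 but no shared litter or day, and deviations of same-numbered arrays correlated at -0.017. With the replicate block 2913 probe sets (1504 higher), 7 hedgehog probe sets, 5 hedgehog genes, 17 pathway genes and 41 cell type genes were called. Of the named genes, Rab34 missed the threshold there (adjusted p = 0.0505).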
